A study of Mus musculus with 6 samples.

Results

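The nuclear-encoded subunits of the respiratory chain and of ATP synthase were examined in liver RNA-Seq of 6 house mice (Mus musculus). Members were chosen by name, as genes whose symbol begins with Nduf followed by a, b, c, s or v and a number (complex I), Sdha to Sdhd (complex II), Uqcr (complex III), Cox4 to Cox8 (complex IV) or Atp5 (complex V, ATP synthase). Of 102 names that matched, 13 names of the -ps kind were left out and 4 were left out because they were listed more than once for a mouse, which left 85 members of 47232 gene names used. Complex I had 39 members, complex II 4, complex III 7, complex IV 19 and complex V 16. The groups were 3 laboratory mice of strain C57BL/6, all adult males from a breeding facility that were killed on arrival, and 3 adult wild mice, 1 male (wild mouse 1) and 2 females (wild mice 2 and 3), trapped at 2 places in New South Wales and kept for some months before they were killed. No mouse was treated, and all livers were frozen without fixation. Since every laboratory mouse was male and bred in a facility, origin cannot be told apart from sex in 2 of the 3 wild mice, nor from housing or handling. The comparison asks how liver expression of these genes differs between the laboratory and the wild mice.

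The respiratory chain lies in the inner mitochondrial membrane. Complexes I and II pass electrons from NADH and succinate to coenzyme Q, complex III passes them on to cytochrome c, and complex IV reduces oxygen, while the proton gradient made on the way drives ATP synthase. A few large subunits carry the flavins, iron-sulfur centres, haems and catalytic sites, and many small accessory subunits surround them, some of which exist as isoforms for muscle, lung or testis. Hepatocytes rely on the chain for urea synthesis, gluconeogenesis and fatty acid oxidation.

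Promoters of these genes are known for matches to the factors NRF-1, ETS (NRF-2) and YY1, so the stretches that hold such a match are shown for the 4 members with the largest called differences among those with a match. RefSeq windows of GRCm38.p6, from 250 bases before to 50 after an annotated start, were found for 66 members. Of these, 4 had several windows, and for a gene shown its first window with a match was used. The Atp5j stretch lies inside the span listed for that gene (84827871 to 84835857). Capitals mark the match, searched on both strands as CCGGAAG for ETS and AAGATGGC for YY1. Ndufa3 (chr7:3617335-3617402, plus strand) held the YY1 letters, Atp5j (chr16:84834971-84835124, minus strand) held both, and Cox6b1 (chr7:30626085-30626202, minus strand, as the reverse complement) and Ndufb7 (chr8:83566678-83566787, plus strand) held the ETS letters.
Ndufa3: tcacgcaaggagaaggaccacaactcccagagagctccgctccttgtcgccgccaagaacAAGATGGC
Atp5j: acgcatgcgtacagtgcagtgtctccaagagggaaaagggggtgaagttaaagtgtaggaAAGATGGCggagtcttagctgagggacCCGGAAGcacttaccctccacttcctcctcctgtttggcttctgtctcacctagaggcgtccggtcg
Cox6b1: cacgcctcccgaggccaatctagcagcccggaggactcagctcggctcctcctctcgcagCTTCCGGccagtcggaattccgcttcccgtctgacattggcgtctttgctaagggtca
Ndufb7: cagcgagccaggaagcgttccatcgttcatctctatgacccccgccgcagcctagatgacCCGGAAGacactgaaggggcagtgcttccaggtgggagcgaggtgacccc

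The ETS letters lay in 16 of the 66 member windows, against 16.7% of the tested genes with a window and 9.93% of all genes with one. The YY1 letters lay in 10 of 66, against 4.49% and 3.19%. The full NRF-1 letters, which are GCATGCGC preceded by GC, lay in 4 of 66 (Atp5g2, Atp5k, Cox6a1 and Ndufa11), against 1.88% and 1.07%, and GCATGCGC with any bases before it in 9 of 66, against 4.86% and 3.05%. At least 1 of the 4 was present in 29 of the 66 windows, against 23.8% and 14.9%. Among members called in the comparison below, 14 of 27 windows of those higher in laboratory mice and 2 of 10 of those lower held a match.

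Expression was read as FPKM, fragments scaled to transcript length and library size, and as zFPKM, which subtracts the mode of log2 FPKM in the same mouse and divides by a fitted SD. A zFPKM of 0 is thus the mode, and a difference of 1 is 1 of those SDs. The libraries did not centre alike. The median log2(FPKM + 0.1) of the tested genes ran from -0.11 to 0.36 in laboratory mice and from 0.73 to 1.03 in wild mice, and the median zFPKM was lowest in laboratory mouse 3 (-0.75) and wild mouse 1 (-0.70), against -0.28 to -0.17 in the others. Liver markers were abundant in every mouse, with summed FPKM of 53243 to 78257 over 15 genes. In the fit described below, 4 of these 15 were called higher and 5 lower in laboratory mice. Over all tested genes, 7.17% were called higher and 7.28% lower. Striated muscle markers summed to at most 1.64 and adipocyte markers to at most 0.412. Erythroid markers, which include the globins, summed to 1341 to 5138 in laboratory and 724 to 1582 in wild mice. Of these 7 genes, 5 were called higher in laboratory mice, against the same 7.17%. Their part in the results below was not tested. In bulk liver, fewer cells of a type and less RNA per cell cannot be told apart.

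The members were among the most abundant liver transcripts, and 81 of the 85 passed the filter (zFPKM above -3 in at least 3 mice). In each mouse 37 to 49 members exceeded a zFPKM of 2, and 30 did so in all 6. Together the members held 3.17% to 3.92% of all FPKM in a mouse. By mean zFPKM the order was led by Cox6b1 (2.92), Cox7c (2.84), Uqcr11 (2.84), Cox6c (2.82) and Cox6a1 (2.77), all small subunits of complexes III and IV. The highest of complex I was Ndufa3 (2.68), of complex V Atp5h (2.67) and of complex II Sdhb (2.21). The lowest tested members were isoforms of other tissues or copies, with Cox4i2 at -1.14, Cox8b at -1.62, Cox6a2 at -1.63 and Ndufs6b at -2.24. Cox7b2, Cox8c and Ndufa11b were listed at 0 in all mice, and Cox6c2 had a value in laboratory mouse 3 alone. Members varied little between mice of a group. The median SD of zFPKM was 0.136 in laboratory and 0.0453 in wild mice, against 0.296 and 0.269 over all tested genes. In each mouse the median zFPKM of all tested genes was below that of the members, and genes of like level were not compared.

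Laboratory and wild mice differed in the balance between subunits. Of the 81 tested members, 33 were higher and 13 lower in laboratory mice (limma on zFPKM, adjusted p under 0.05), while 7.17% and 7.28% of the 18619 tested genes were called in these directions. Among those called higher were the accessory subunits Cox7c, Ndufa3 and Ndufa5, and among those called lower were the ATP synthase beta subunit, the succinate dehydrogenase flavoprotein and the NADH-binding subunit of complex I. This was no strict division, since the core subunit Ndufs8 was also called higher and Cox5a, Atp5pb and Atp5g3 were also called lower. Of the 33 higher calls, 32 were lost once the trend with transcript length was removed, as described below. All 33 kept their direction there, with a median difference of 0.43 in place of 0.50. The median difference, laboratory minus wild, was 0.17 over the members and 0.005 over all tested genes. By complex, 19 members were called higher and 3 lower in complex I, 0 and 2 in complex II, 3 and 1 in complex III, 6 and 4 in complex IV, and 5 and 3 in complex V. The SEs and p-values of the fit that gave 33 and 13 draw on a trend of the variance with expression over all tested genes. They therefore do not measure the spread between the mice of a group alone. Cox7c and Uqcr11, which were alike in mean level, both had an SE of 0.0949, against 0.262 for Ndufa4l2, which was low. Most members were abundant, and their shares of calls were not compared with those of other genes of like level. With the variance not modelled as a trend with expression, limma called 0 members (39 had an unadjusted p under 0.05) and 4.27% of all genes. Without laboratory mouse 3 and wild mouse 1, which stood apart in their median zFPKM, 52 were called higher and 13 lower, against 14.6% and 15.9% of all genes. With the median zFPKM of each mouse set to 0 instead, 14 were called higher and 6 lower (17.3% and 7.41% of the members), against 14.4% and 13.9% of all genes, and with no filter on low values 0 were called, against 0.0487% of all genes.

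**Figure D1:**
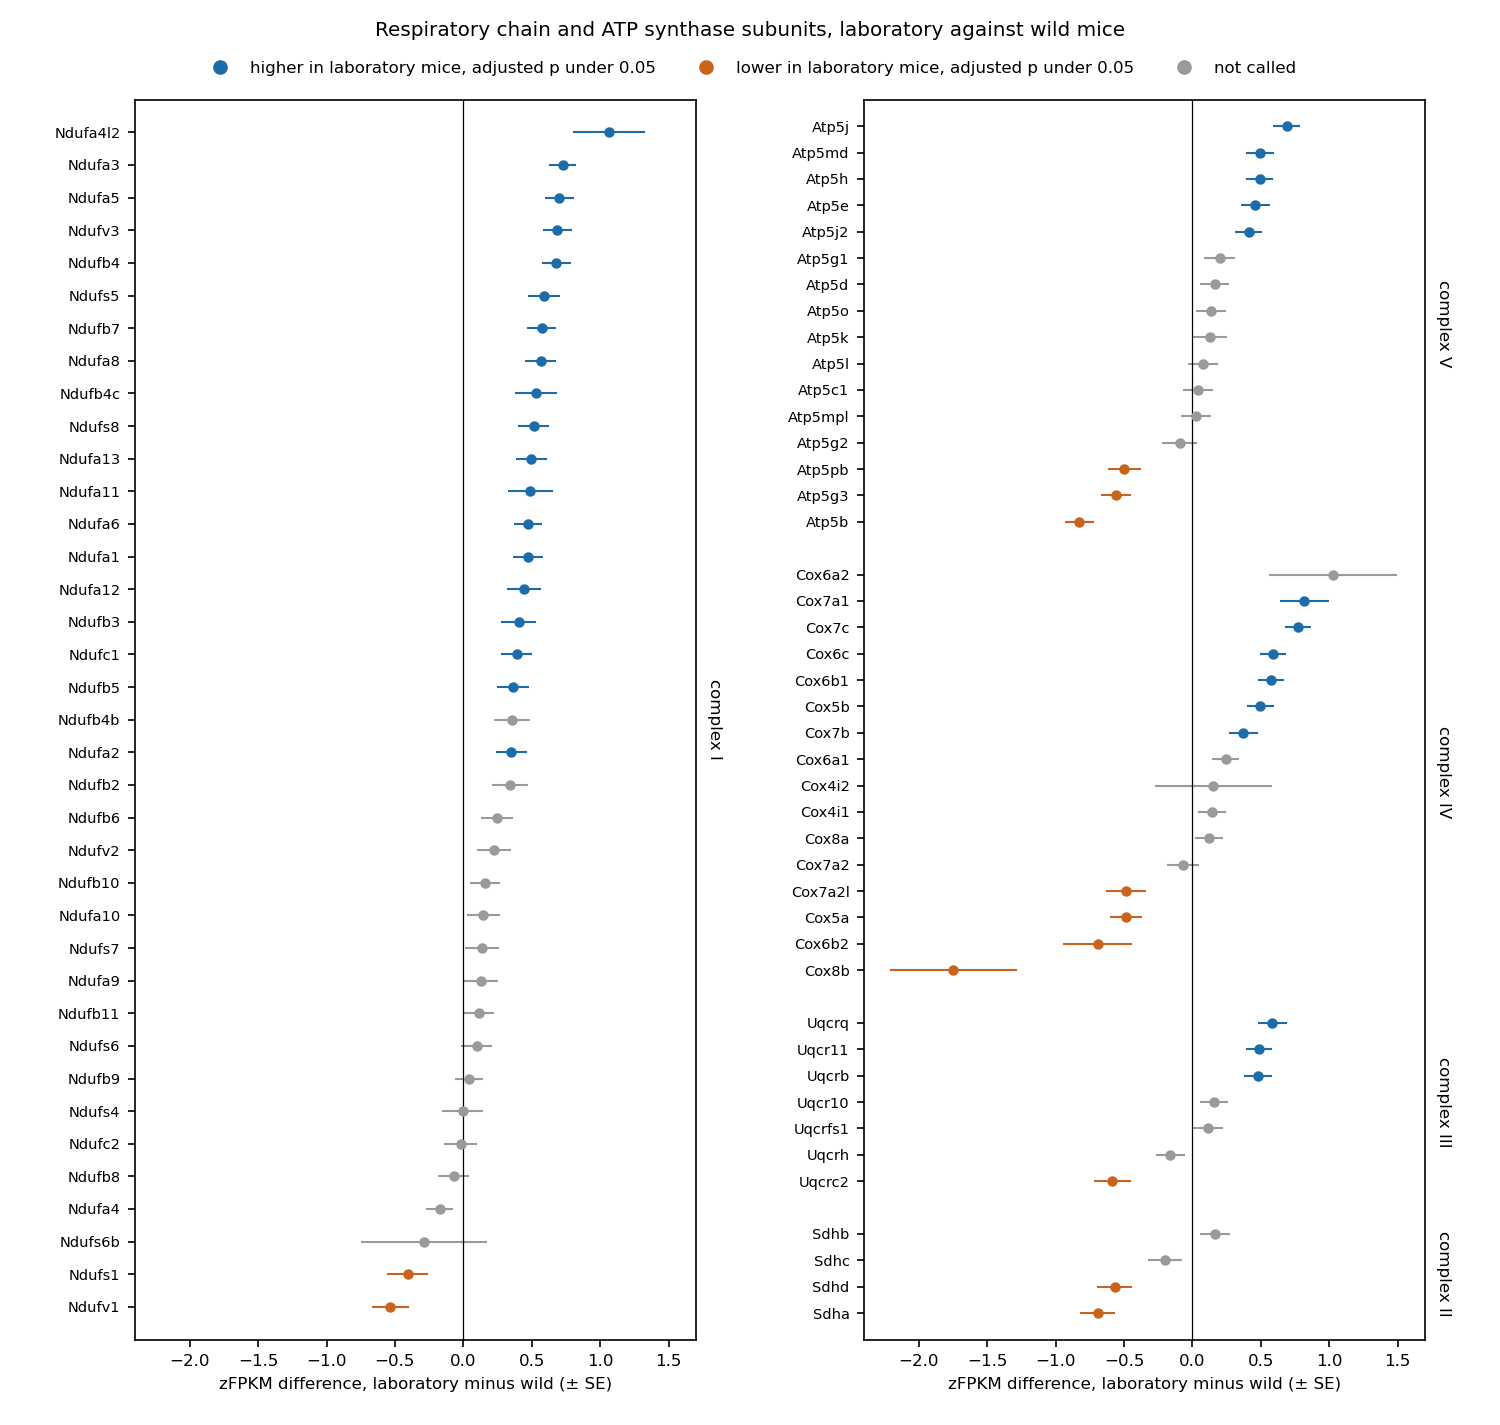
Differences in zFPKM (laboratory minus wild, points, with limma SE as bars) of 80 of the 81 tested members, ordered within complexes I to V. Blue points were called higher, orange called lower and grey not called, and Cox8b, at -1.75, lies furthest from 0.

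In FPKM itself the groups did not overlap for 64 members. Laboratory mice were higher for 32, against 12.1% of the tested genes, and wild mice for 32, against 43.7%. All 46 called members kept their direction on log2(FPKM + 0.1), a scale on which the median of all tested genes was shifted by -0.47. On that scale 28 members were called higher and 23 lower in laboratory mice, with 8.19% and 37.9% of all genes called (25 lower, against 36.8%, on log2(FPKM + 1)), and the members' median was -0.13, above the -0.47 of all genes. The share of members called higher was thus above that of all genes on both scales, and the share called lower was above it on zFPKM and below it on log2 FPKM.

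The beta subunit of ATP synthase, Atp5b (chr10:128083307-128090388), which carries the catalytic sites, stood at an FPKM of 94.6, 115 and 79.9 in laboratory mice 1 to 3 and 865, 820 and 790 in wild mice 1 to 3. The wild mean was 8.54 times the laboratory mean, without overlap, and zFPKM differed by -0.83 ± 0.11 (SE, adjusted p = 1.55e-12). Atp5pb, the b subunit of the peripheral stalk, stood at 50.2, 72.7 and 43.9 in laboratory and 256, 232 and 235 in wild mice (-0.50, adjusted p = 0.00067). In contrast, Atp5j, coupling factor 6 of the same stalk, was higher in laboratory mice, at 862, 889 and 808 against 401, 345 and 345 FPKM (0.69, adjusted p = 3.91e-10). Atp5h, Atp5md, Atp5e and Atp5j2, other small subunits of the enzyme, were also called higher, by 0.41 to 0.49. The gamma, delta and OSCP subunits Atp5c1, Atp5d and Atp5o were not called, with differences between 0.04 and 0.16. Atp5k, the lowest member of complex V, stood at 53.0 to 70.7 FPKM in laboratory and 69.7 to 93.6 in wild mice and was not called. The summed FPKM of complex V overlapped between the groups, at 5003 ± 621 in laboratory and 5497 ± 343 in wild mice (SD, n = 3 each).

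Complex II was the only one with no member called higher, and its summed FPKM did not overlap, at 341 ± 40.6 in laboratory and 782 ± 87.2 in wild mice (SD, n = 3 each), 2.29-fold higher in wild mice. Sdha (chr13:74322255-74350240), the flavoprotein that oxidizes succinate, stood at 29.0, 32.7 and 26.7 FPKM in laboratory and 206, 172 and 196 in wild mice. The zFPKM difference was -0.69 ± 0.13 (SE, adjusted p = 2.73e-06). Sdhd, a membrane anchor, stood at 30.9, 46.7 and 38.4 against 276, 187 and 145 (-0.57, adjusted p = 0.00013). Sdhc, the other anchor, and Sdhb, the iron-sulfur subunit, were not called (-0.20 and 0.17, adjusted p = 0.33 and 0.36), although their FPKM was higher in each wild mouse than in any laboratory mouse. Within the complex Sdhb was the most abundant in laboratory mice, at 221 FPKM on average against 29.5 for Sdha, a gap that was smaller in wild mice, at 265 against 192.

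In complex I, core subunits were called in both directions. Ndufv1 (chr19:4007499-4012755), which binds NADH and FMN, stood at an FPKM of 26.4, 28.0 and 24.0 in laboratory and 149, 113 and 112 in wild mice (-0.53, adjusted p = 0.0011). Ndufs1, the largest iron-sulfur subunit, differed by -0.41 (adjusted p = 0.048), a call that was lost without laboratory mouse 1 or 2 or any of the wild mice (adjusted p between 0.053 and 0.23). A further core subunit, Ndufs8, was higher, at 266, 207 and 202 against 128, 122 and 149 FPKM (0.52, adjusted p = 0.000145), and Ndufv2 and Ndufs7 were not called. The other 18 members of the complex called higher were accessory subunits, isoforms or copies. Ndufa3 (chr7:3617347-3620165) stood at 1136, 931 and 889 FPKM in laboratory and 397, 386 and 374 in wild mice, with a zFPKM difference of 0.73 ± 0.10 (SE, adjusted p = 1.62e-11). Ndufa5 (0.70), Ndufv3 (0.69), Ndufb4 (0.68), Ndufs5 (0.59), Ndufb7 (0.57) and Ndufa8 (0.57) followed, with laboratory means 1.86 to 2.40 times the wild means and no overlap. Ndufb4c was called too (0.53), though not without laboratory mouse 1 or 2 or wild mouse 1 or 3 (adjusted p between 0.057 and 0.12), and Ndufb4b, Ndufb4c and Ndufb4 are close copies whose reads may be split between them, so their levels are uncertain. The summed FPKM of complex I overlapped, at 7645 ± 698 in laboratory and 6264 ± 582 in wild mice (SD, n = 3 each), but not without Ndufa4 (7315 ± 611 and 5509 ± 429, SD, n = 3 each).

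In complex III, 3 of 7 tested members were higher and 1 lower in laboratory mice. Uqcrc2 (chr7:120635189-120659523), a large core protein on the matrix side, stood at 24.8, 34.1 and 19.2 FPKM in laboratory and 138, 129 and 130 in wild mice (-0.59 ± 0.13 SE, adjusted p = 0.00025). The small subunits Uqcrq, Uqcr11 and Uqcrb were higher in laboratory mice, by 0.58, 0.49 and 0.48. Uqcrq, which lies close to cytochrome b, stood at 497, 467 and 441 FPKM against 228, 248 and 260 (adjusted p = 1.12e-06). The Rieske iron-sulfur protein Uqcrfs1 was not called, at 119 to 156 FPKM in laboratory and 160 to 214 in wild mice. Summed FPKM overlapped, at 2917 ± 220 against 2556 ± 168 (SD, n = 3 each).

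In complex IV the summed FPKM was 6772 ± 629 in laboratory and 5042 ± 601 in wild mice (SD, n = 3 each), 1.34-fold higher in laboratory mice without overlap. With Ndufa4, which is known as a subunit of complex IV but was placed with complex I by name, counted here, the sums were 7103 ± 728 and 5797 ± 747 (SD, n = 3 each) and overlapped. Cox7c (chr13:86044798-86046795), a small membrane subunit, stood at 1342, 1441 and 1415 FPKM in laboratory and 607, 468 and 457 in wild mice. Its zFPKM difference was 0.77 ± 0.09 (SE, adjusted p = 8.57e-14). Cox6c (0.59), Cox6b1 (0.57), Cox5b (0.50) and Cox7b (0.37), other ubiquitous accessory subunits, were also called higher, without overlap, but Cox7b was not called without laboratory mouse 1 or 2 (adjusted p of 0.070 and 0.057). Cox5a, which lies next to Cox4 on the matrix side, went the other way, at 73.6, 103 and 53.8 FPKM in laboratory and 402, 301 and 260 in wild mice (-0.48, adjusted p = 0.00056). Cox4i1, the ubiquitous Cox4 isoform, was not called (0.14, adjusted p = 0.39), and neither were Cox6a1 and Cox8a.

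**Figure D2:**
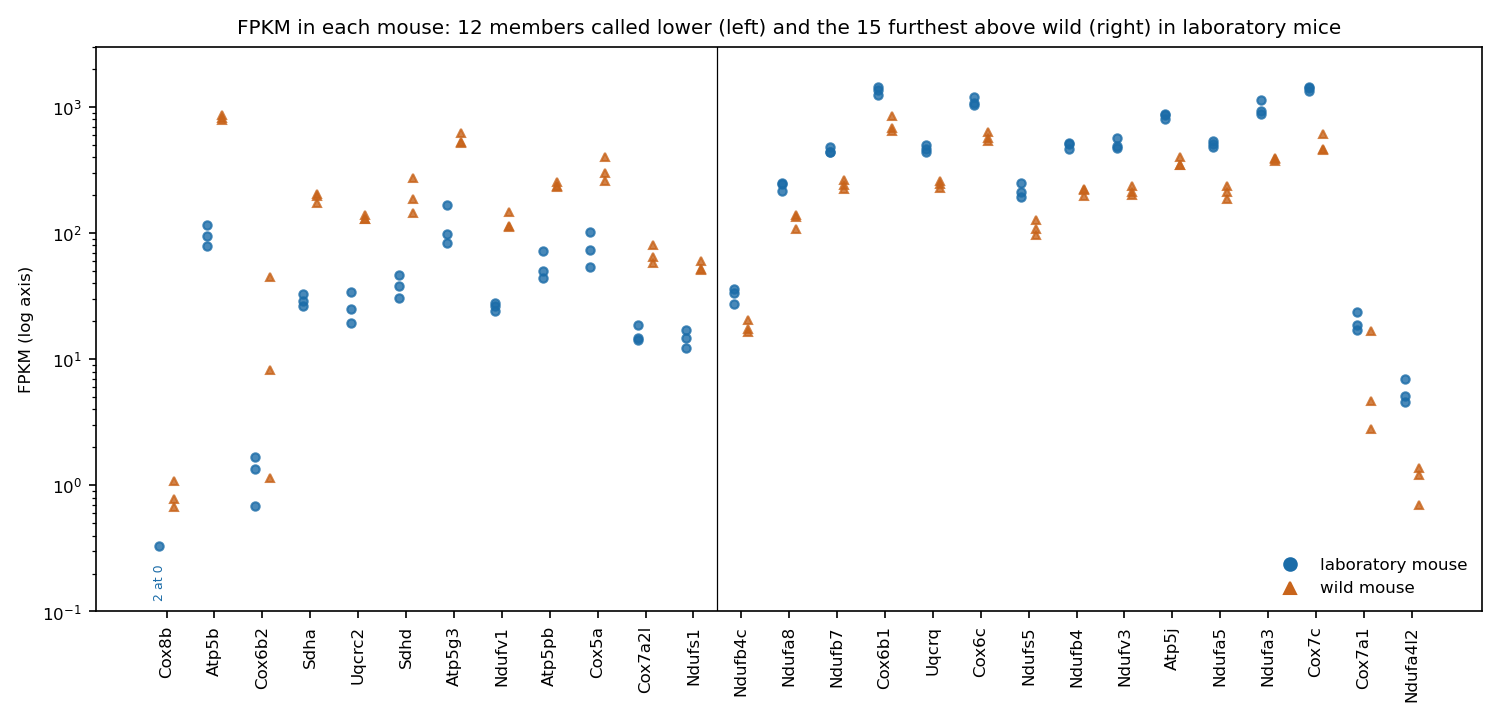
FPKM (log axis) in each laboratory mouse (circles) and wild mouse (triangles) for 12 of the 13 members called lower in laboratory mice (left) and the 15 called members furthest above wild mice by zFPKM (right). The groups overlap only for Cox6b2, and 2 laboratory mice are listed at 0 for Cox8b.

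Isoforms known from other tissues ranged from 0 to 45.2 FPKM, and some were called. Ndufa4l2 (chr10:127509274-127517154), a hypoxia-induced relative of Ndufa4, stood at 4.55, 7.02 and 5.15 FPKM in laboratory and 1.21, 1.38 and 0.699 in wild mice, with a zFPKM difference of 1.07 ± 0.26 (SE, adjusted p = 0.00091, or 0.066 without laboratory mouse 2). Ndufa4 itself was not called (-0.17). Cox7a1 (chr7:30184171-30186030), the form of heart and skeletal muscle, had 23.8, 18.7 and 17.0 FPKM in laboratory mice and 16.7 in the wild male, against 4.64 and 2.82 in the wild females. It was called higher in laboratory mice (0.82, adjusted p = 0.00016), but against the wild male alone, in the fit with a term for sex, the difference was 0.50 (adjusted p = 0.24). Of the 9 muscle markers, Mylpf had 0.655 to 1.34 FPKM and Tnnt2 0.0756 to 0.413, neither of them called (0.34 and 0.52), and Ckm, Acta1 and Myh4 had at most 0.0369.

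Cox8b (chr7:140898942-140900446), another muscle form, was listed at 0 in laboratory mice 1 and 2, at 0.333 in laboratory mouse 3 and at 1.08, 0.674 and 0.782 in wild mice. Its difference of -1.75 (adjusted p = 0.0026) rests on setting the lowest zFPKM to -3, and it was not called without laboratory mouse 1 (adjusted p = 0.063) or 2 (adjusted p = 0.062). Cox6b2 (chr7:4751792-4753094), the testis form of Cox6b, stood at 1.36, 1.69 and 0.687 FPKM in laboratory and 1.15, 8.27 and 45.2 in wild mice, high only in the wild females and with overlap. Its difference of -0.69 (adjusted p = 0.043) turned to 0.50 with sex as a covariate (adjusted p = 0.50). Its call was lost without laboratory mouse 1, 2 or 3 or without wild mouse 2 or 3 (adjusted p between 0.050 and 0.85). Cox6a2, a muscle form, and Cox4i2, known from lung, were not called and had at most 0.602 FPKM.

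Shares within isoform families are not altered when all FPKM of a library are multiplied by a constant. Among the genes for subunit c, the ring protein of ATP synthase that Atp5g1, Atp5g2 and Atp5g3 encode as the same mature peptide, Atp5g1 held 50.7% ± 5.69 of the family FPKM in laboratory and 22.2% ± 1.39 in wild mice (SD, n = 3 each). Atp5g3 held 32.4% ± 7.22 and 64.3% ± 0.363 (SD, n = 3 each). Atp5g3 alone was called, from 97.9, 168 and 83.1 FPKM in laboratory to 626, 532 and 516 in wild mice (-0.56, adjusted p = 9.30e-06). In the Cox7a family, Cox7a2l held 11.2% ± 0.555 in laboratory and 24.7% ± 0.663 in wild mice (SD, n = 3 each). Cox7a2l was called lower in laboratory mice (-0.48, adjusted p = 0.010), but not when any of the wild mice was left out (adjusted p between 0.053 and 0.099). The transcripts of Atp5g1 and Atp5g3 are of similar length (596 and 714 bases), whereas that of Cox7a2l (1076 bases) is longer than that of Cox7a1 (393 bases). Cox7a1 held 14.2% ± 3.02 and 2.66% ± 2.03 (SD, n = 3 each), and Cox7a2 held most of the family in both groups, at 74.6% and 72.6%. Ndufa4l2 held 1.71% of its pair with Ndufa4 in laboratory and 0.144% in wild mice. Cox4i1 held 99.9% of the Cox4 family in both groups. The smallest p of a two-sided exact permutation test with 3 mice against 3 is 0.1, which was reached in 4 of the 5 families tested (adjusted p = 0.125 over the families) and was 0.9 for Cox4.

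**Figure D3:**
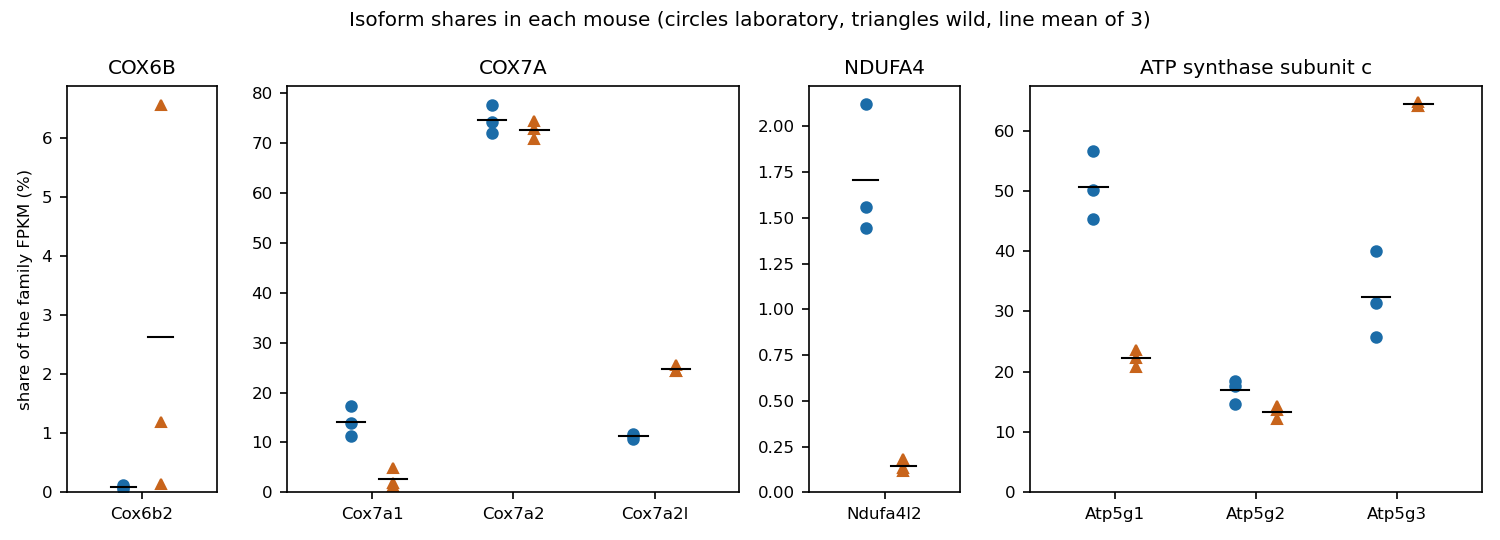
Share of an isoform family's summed FPKM (percent, each panel with its own axis from 0) held by the isoforms in each laboratory mouse (circles) and wild mouse (triangles), with the mean of 3 as a line. Atp5g1 and Atp5g3 change places between the groups, and Cox7a2l is at 11.2% in laboratory and 24.7% in wild mice.

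**Figure D4:**
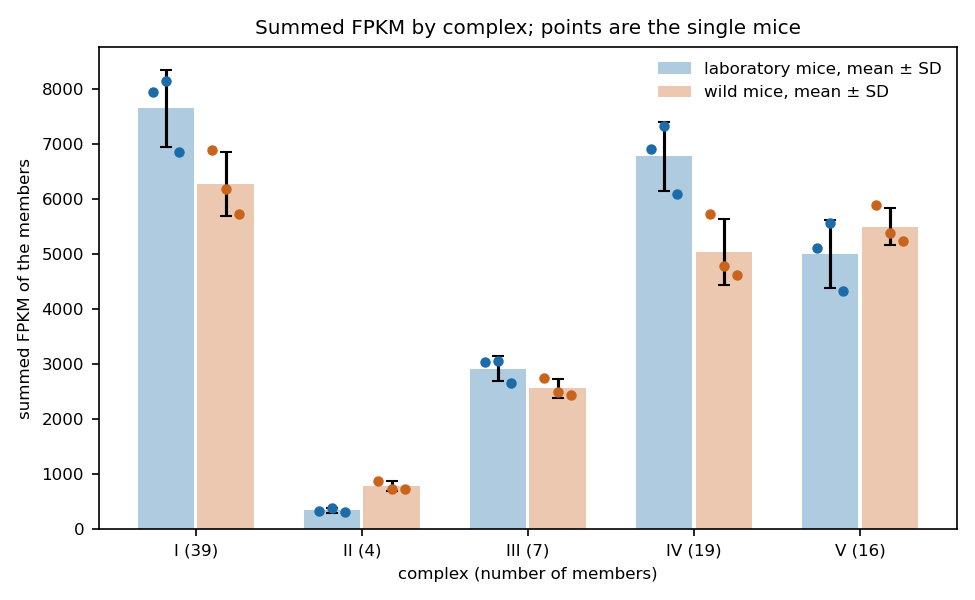
Summed FPKM of the members of each complex, with bars for the mean, error bars for the SD over 3 mice and points for the single mice. With Ndufa4 in complex I, where its name puts it, laboratory mice lie above wild mice for complex IV and below them for complex II, and the groups overlap for complexes I, III and V. With Ndufa4 in complex IV, that complex overlaps and complex I does not.

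Subunits of a complex were further apart in level in laboratory mice. Over 72 members, without 13 tissue isoforms and copies, the SD of log2 FPKM between subunits was 1.58 to 1.65 in the laboratory mice, against 1.13 in each of the wild mice. In complex II it was 1.27 to 1.34 against 0.446 to 0.545, and in complex III 1.64 to 1.88 against 0.836 to 0.854. In laboratory mice the 72 members ran from 14.7 FPKM for Ndufs1 to 1399 for Cox7c, and in wild mice from 14.8 for Ndufa11 to 825 for Atp5b. Once the trend of log2 FPKM with length in each mouse was taken out, the SD was 1.62 to 1.72 in laboratory and 1.19 to 1.22 in wild mice. No test was made over the members, and the spread between other genes was not compared.

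Transcript length moved with the direction of the difference. The members called higher in laboratory mice had a median length of 572 bases (315 to 1521) and those called lower 1604 (360 to 2900), against 693.5 for those not called. Exceptions were Atp5g3, Cox5a, Cox6b2 and Cox8b, short transcripts that were lower in laboratory mice. Over 80 members, the difference and the length had r = -0.32 (rho = -0.32), and over 16687 tested genes r = -0.11 (rho = -0.14), across genes that share the same 6 libraries. The median difference of all tested genes fell from 0.28 for transcripts up to 500 bases to -0.08 for those over 3000. With the zFPKM trend over length taken out in each mouse, 2 members were called higher, Ndufa4l2 (1.01, adjusted p = 0.00078) and Cox6a2 (0.93, adjusted p = 0.028), against 11.3% of all genes, and 11 were called lower, against 15.7%. The 33 members called higher before all kept their direction, with a median difference of 0.43 in place of 0.50 (0.11 to 1.01), but 32 of them lost the call. Cox7c, for example, went from 0.77 to 0.63 and Uqcrq from 0.58 to 0.56. These 11 were all among the 13, so Atp5b, Sdha, Sdhd, Uqcrc2 and Ndufv1 were still called. With the same trend removed from log2(FPKM + 0.1), 34 were called higher and 15 lower, against 24% and 22.5% of all genes. Of the 33 members called higher on zFPKM, 32 were among these 34.

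**Figure D5:**
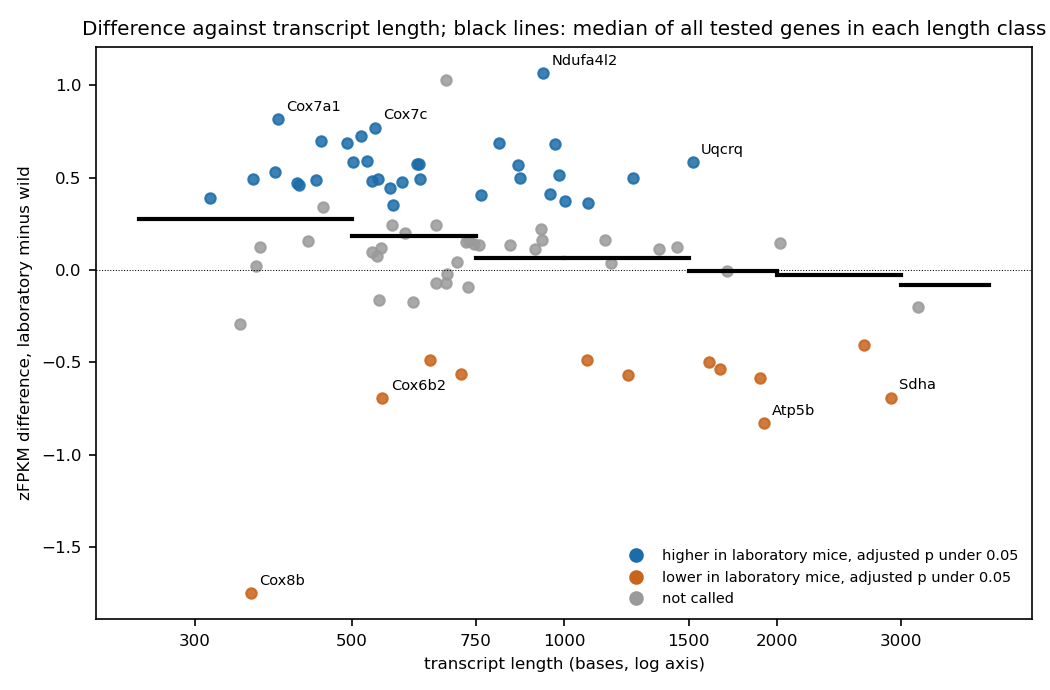
zFPKM difference (laboratory minus wild) of 79 members against transcript length (log axis), coloured by call. Black lines give the median of all tested genes in each length class, which falls from 0.28 to -0.08, and most members called lower lie to the right, beyond 1000 bases.

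Since wild mouse 1 was the only wild male, a fit with sex as a covariate sets the laboratory mice against that mouse alone, which also stood apart in its median zFPKM. In this fit 24 members were called higher and 4 lower in laboratory mice, against 6.04% and 1.34% of all genes, and the 4 lower were Atp5b, Atp5g3, Sdha and Sdhd. The median difference was then 0.24 over the members and 0.27 over all tested genes. The term for sex itself called 0 of 81 members and 0.376% of all genes in limma. Cox6b2 had its largest value (-1.78, male minus female, adjusted p = 0.13). With the wild females left out, which gives the same differences with fewer mice to judge the spread, limma called 0 members and 0% of all genes, and 33 members had an unadjusted p under 0.05.

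Genes that build the complexes but are no members were compared as lists. Of 72 tested assembly factors, carriers and regulators, 6 were higher and 5 lower in laboratory mice, close to the 7.17% and 7.28% of all tested genes, with a median difference of -0.04. Of 17 complex I assembly factors, 0 were higher and 2 lower, among them Nubpl, which delivers iron-sulfur clusters to complex I, at 0.655, 0.807 and 0.313 FPKM against 11.5, 13.6 and 15.6 (-1.38, adjusted p = 2.82e-06). Of 6 complex III factors 2 were higher, Uqcc2 (0.61) and Uqcc3 (0.56). Of 22 complex IV factors 3 were higher and 2 lower, led by Pet100 (0.998), at 48.7, 43.4 and 45.2 FPKM against 9.56, 10.9 and 10.4, and by Taco1 (-1.01), an activator of Cox1 translation. Among 6 subunits and electron carriers outside the rule, Etfdh, which feeds electrons from fatty acid oxidation to coenzyme Q, was lower (-1.08, adjusted p = 2.87e-12) and Etfb higher (0.31, adjusted p = 0.019). With the length trend removed, limma no longer called Uqcc2 (0.43, adjusted p = 0.10) or Etfb (0.26, adjusted p = 0.49). Nubpl, Uqcc3, Pet100, Taco1 and Etfdh were still called. None of 4 complex II factors, 4 complex V factors and 13 regulators was called by limma, with 1, 0 and 2 at an unadjusted p under 0.05.

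Among the names left out by the rule, some had FPKM as high as members. Atp5a1, the alpha subunit that forms the catalytic head with Atp5b, was listed at 35.6, 46.9 and 33.2 FPKM in laboratory and 269, 217 and 224 in wild mice. Ndufb1-ps stood at 477, 497 and 450 FPKM in laboratory and 145, 137 and 129 in wild mice. Ndufs5-ps stood at 77.4 to 88.9 FPKM in laboratory and 96.7 to 129 in wild mice, the reverse order to Ndufs5. On the reference chromosomes Uqcrc1 was listed at 42.6 to 50.1 and 86.9 to 119 FPKM, and Ndufs3 at 42.1 to 56.0 and 75.6 to 82.0. Over all its listings Ndufa7 had 31.1 to 47.4 and 63.3 to 73.3. These names entered no count or sum above.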

How the data were processed

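Livers of 6 mice were measured once each by RNA-Seq of polyA RNA. Reads were aligned by the authors to a masked mouse assembly with kalign, and the submitters' processing notes name GRCm38.p6 and Picard. The authors calculated the deposited FPKM with the Tuxedo pipeline and turned it into the deposited zFPKM, a score scaled within each mouse. Whether counting used the strand is not given in the sources used here. No counts were used, so depth is unknown, no counting interval is given and the count test of the study was not repeated. Each group held 3 mice, and the SEs and p-values of limma also rest on the variance trend over all tested genes.

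Names that each file lists a single time were kept, less 24 with a failed estimate, none of them a member. Genes with zFPKM above -3 in at least 3 mice entered the test (values under -3 were raised to -3) by limma 3.58.1 in R 4.3.3 (lmFit, eBayes with trend, Benjamini-Hochberg adjustment over all 18619 genes). Differences are laboratory minus wild. The procedure was run on simulated data in which every gene had the same SD and the shifts exceeded most differences seen here. That run does not bear on calls that rest on the variance trend. Shares, sums and motifs were computed with pandas 2.3.3, numpy 2.4.6 and scipy 1.17.1 in Python 3.11.15. Lengths came from GENCODE transcripts on GRCm38 (84 of 85 members, 89.6% of tested genes). The median of those paired with RefSeq was taken where there were any (80 members, 14290 tested genes), and otherwise the longest transcript of that name. Starts in the files are counted from 0 and were raised by 1.

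The members and lists were chosen with earlier results of these data known. Named were the Sdh genes, the highest and lowest member of each complex, isoform families, up to 15 called members in each direction and the largest called genes of each list. Others, such as the motif holders, members named as not called, Ndufs8, the smaller calls, the place of Ndufa4 and the names left out by the rule, were chosen after their values were seen, as was the set of 13 isoforms and copies. A member that entered all counts is not reported here by itself. Alternatives were other scalings, pseudocounts, floors and filters, removal of the length trend, no variance trend, sex as a covariate, males only and mice left out.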

Additional observations from a re-analysis of the deposited data

How the results depend on the processing

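The main counts were 33 members higher and 13 lower in laboratory mice, with a median difference of 0.17. With zFPKM medians set to 0 the counts were 14 and 6. With no filter on low values, with no trend of the variance and with males only they were 0 and 0 (48, 39 and 33 members at an unadjusted p under 0.05). With the length trend removed 2 were higher, without laboratory mouse 3 and wild mouse 1 52 were higher, and with sex as a covariate 4 were lower. On log2(FPKM + 0.1) and log2(FPKM + 1), 23 and 25 were lower and the median turned to -0.13 and -0.10. The median was 0.46 after quantile normalization, 0.61 on log2(FPKM + 0.1) with medians at 0, and 0.30 with the length trend removed from log2(FPKM + 0.1), which was added after the data had been seen. The cause was not tested.

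Of the 46 called members, 14 lost the call without at least 1 mouse. Leaving out each mouse in turn gave 25 to 40 members higher, 9 to 12 lower and a median of 0.14 to 0.29. Of the 46 called members, 45 kept their direction under every alternative that gave a value, and Cox6b2 turned to 0.50 with sex as a covariate and with males only. The share of Cox4i1, 0.0035 percentage points higher in laboratory mice, ranged from -0.0159 to 0.0243 when mice were left out and was below 0 without laboratory mouse 1 (-0.0004) or 2 (-0.0117) or wild mouse 2, and that of Cox4i2 ranged from -0.0243 to 0.0159 (0.0004 and 0.0117). Of the 72 tested pathway genes, 6 higher and 5 lower became 22 and 16 after quantile normalization and 15 and 19 on log2(FPKM + 0.1) with medians at 0. The shares of all genes called in these settings are not given here. With the length trend removed from log2(FPKM + 0.1), the pathway counts were 16 and 21, against 24% and 22.5% of all genes. The lower count was 41 on log2(FPKM + 0.1), where 37.9% of all genes were called lower. It was 10 with zFPKM medians at 0, against 13.9% of all genes, and 11 with the length trend removed, against 15.7%. No paired analysis was possible because the labels give the mice no replicate numbers that groups share.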
